A study of Mus musculus with 39 samples.

Results

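Clones yfp_7160c5 and yfp_6422c5 were the 2 pancreatic tumour cell clones that the labels class as T cell intermediate, and they came from different parent tumour lines. They were chosen by that label and gave 4 of the 39 libraries of the series, with 2 libraries of yfp_7160c5 and 2 of yfp_6422c5. Each clone was grown as a subcutaneous tumour in untreated C57BL/6 hosts for 3 weeks. YFP-labelled tumour cells were sorted from them, and messenger RNA was read as counts per gene by RNA sequencing. The same strain, site, time and lack of treatment held for all libraries, and the clones differ by their parent line. Each line enters the contrast as 1 clone, so a difference between clones cannot be told apart from a difference between parent lines. The labels do not say that the libraries of a clone came from separate mice. The p-values thus measure only the spread between libraries of the same clone, estimated over all 36 libraries with a T cell class. That spread may be technical.

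The series asks how tumour cells of T cell high clones differ in RNA from those of T cell low clones. The classes refer to the T cells in the tumours a clone forms, and both clones described here were placed between them. Pancreatic ductal tumour cells keep parts of the duct and foregut programme, which transcription factors of the FOXA and GATA families help to set. They lose junction and surface proteins such as EPCAM as they become less epithelial. They also release cytokines and chemokines that act on leukocytes, so both kinds of product were followed here.

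Foxa1, Epcam, Muc4, Gpa33, Lama3 and Krt14 were higher in yfp_7160c5. Gata6, Vsig1, Il33 and Clcf1 were lower in yfp_7160c5. In all, 38 of 20481 genes tested were higher in yfp_7160c5 (0.186%) and 38 were lower (0.186%), by edgeR's quasi-likelihood test with a Benjamini-Hochberg adjusted p under 0.05. Of the 38 lower genes, 20 lay on chromosome 19, which held 647 of the 20481 genes tested. All 76 rested on both tumour 2 libraries. With the tumour 2 library of yfp_7160c5 left out no gene passed edgeR's test (1080 had an unadjusted p under 0.05), and with the tumour 2 library of yfp_6422c5 left out none passed either (818 had an unadjusted p under 0.05). With the tumour 1 library of yfp_7160c5 left out, 35 genes passed as higher and 29 as lower, and with the tumour 1 library of yfp_6422c5 left out 123 and 285 passed. In these fits the lone library of a clone is assumed to vary like those of the other clones.

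The 240 bases that end 11 bases before the RefSeq start are printed for 4 of the genes the comparison turns on, 2 higher and 2 lower in yfp_7160c5, as RefSeq gives them on GRCm38.p6. They are read 5′ to 3′ on the strand of the gene, and capitals mark TGTTTAC or its reverse complement GTAAACA, the core of the forkhead motif that FOXA proteins recognise. Foxa1 lies on the minus strand at chr12:57546122-57546361 in these bases, Gpa33 on the plus strand at chr1:166129971-166130210, Il33 on the plus strand at chr19:29924863-29925102 and Vsig1 on the plus strand at chrX:140907358-140907597. None of these stretches overlapped an annotated exon.
Foxa1: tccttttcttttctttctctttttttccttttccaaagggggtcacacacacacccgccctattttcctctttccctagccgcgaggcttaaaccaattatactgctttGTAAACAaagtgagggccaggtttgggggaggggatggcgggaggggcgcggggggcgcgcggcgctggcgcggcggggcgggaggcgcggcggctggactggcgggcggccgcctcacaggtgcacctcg
Gpa33: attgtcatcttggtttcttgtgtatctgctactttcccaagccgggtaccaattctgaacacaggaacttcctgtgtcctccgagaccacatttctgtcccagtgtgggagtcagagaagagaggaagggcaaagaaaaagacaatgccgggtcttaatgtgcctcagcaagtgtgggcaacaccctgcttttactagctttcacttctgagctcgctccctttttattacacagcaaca
Il33: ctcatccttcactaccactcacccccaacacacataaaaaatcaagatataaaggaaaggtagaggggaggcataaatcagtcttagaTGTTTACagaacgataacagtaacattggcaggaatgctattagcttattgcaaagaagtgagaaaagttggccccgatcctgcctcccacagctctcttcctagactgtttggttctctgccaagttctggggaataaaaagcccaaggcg
Vsig1: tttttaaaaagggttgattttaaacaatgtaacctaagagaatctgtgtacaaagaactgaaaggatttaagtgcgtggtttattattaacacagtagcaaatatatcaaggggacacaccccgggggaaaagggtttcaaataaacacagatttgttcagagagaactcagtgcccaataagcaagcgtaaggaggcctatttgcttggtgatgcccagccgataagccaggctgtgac
The Foxa1 stretch lies inside the gene as GENCODE M21 annotates it (chr12:57540628-57546916), in an intron downstream of the start of its longest transcript, so it is upstream of the RefSeq start only. The match began 141 bases before the RefSeq start in Foxa1 and 162 bases before it in Il33, and neither TGTTTAC nor AGATAA, the core of the GATA motif, was found in the stretches of Gpa33 and Vsig1. Of the 76 genes called, 59 had a promoter in the RefSeq table. Within 250 bases before the start, on either strand, TGTTTAC was held by 1 of 30 genes higher in yfp_7160c5 (3.33%) and by 2 of 29 genes lower in yfp_7160c5 (6.9%), against 3.54% of 27025 genes in the table. AGATAA was held by 4 of 30 higher genes (13.3%) and by 1 of 29 lower genes (3.45%), against 11.4% of all. These shares are descriptions over few promoters, and a match is no evidence of binding.

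The 2 libraries of each clone were of different kinds, and each result is therefore given per library. Summed over Mb, Myl2, Myh6 and Myh7, which mark heart muscle, levels in CPM (library-scaled counts with TMM factors) came to 2419 in the tumour 1 library of yfp_7160c5 and 0.0563 in its tumour 2 library, against 2408 and 0.0849 CPM in those of yfp_6422c5. The 10 liver markers summed to 9464 and 3.00 CPM in yfp_7160c5, against 8727 and 72.2 CPM in yfp_6422c5. Over the series, 17 of the 36 classed libraries held at least 155 CPM of the 4 heart genes and 19 held at most 0.226 CPM. The 19 are called heart-free below, a name that rests on these 4 genes. All 10 heart markers summed to 3284 and 83.9 CPM in yfp_7160c5, against 3264 and 205 CPM in yfp_6422c5. Of these 10, 8 were under 1 CPM in tumour 2 of each clone. The other heart-free libraries held between 14.3 and 557 CPM of them. Every classed clone with more than 1 library held both kinds, so the spread in the fit over all classed libraries includes that difference. Library totals were 31580159 and 33500428 counts in yfp_7160c5, against 18517638 and 40056571 in yfp_6422c5, within a range of 7638130 to 103794674 over the series.

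The tumour 1 libraries resembled each other across clones. Whether they hold cells of the labelled clone alone cannot be told from the labels, and every tumour 1 value and each n of 2 libraries per clone rests on that label. The tumour 1 library of yfp_7160c5 correlated with that of its sister clone yfp_7160c2, a T cell high clone, at r = 0.994 over 11665 genes that averaged 5 CPM or more, and 16 of those genes differed by log2 1 or more. Its correlation with the tumour 2 library of its own clone was 0.732. The tumour 1 libraries of yfp_7160c5 and yfp_6422c5 correlated at 0.934 and their tumour 2 libraries at 0.785. These correlations run across genes, which are not replicates, and the heart and liver transcripts are part of what the tumour 1 libraries share. The tumour 1 library of yfp_6422c5 was closest to that of yfp_6419c1 (r = 0.970), a clone of another line, and reached 0.956 with that of its sister yfp_6422c1, a T cell low clone. Counts of the yfp_7160c5 and yfp_7160c2 tumour 1 libraries differed by more than counting error (chi-square of 10.5 per degree of freedom), so they were kept as 2 libraries. That comparison covers counting error only and does not show that they came from separate tumours.

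**Figure D1:**
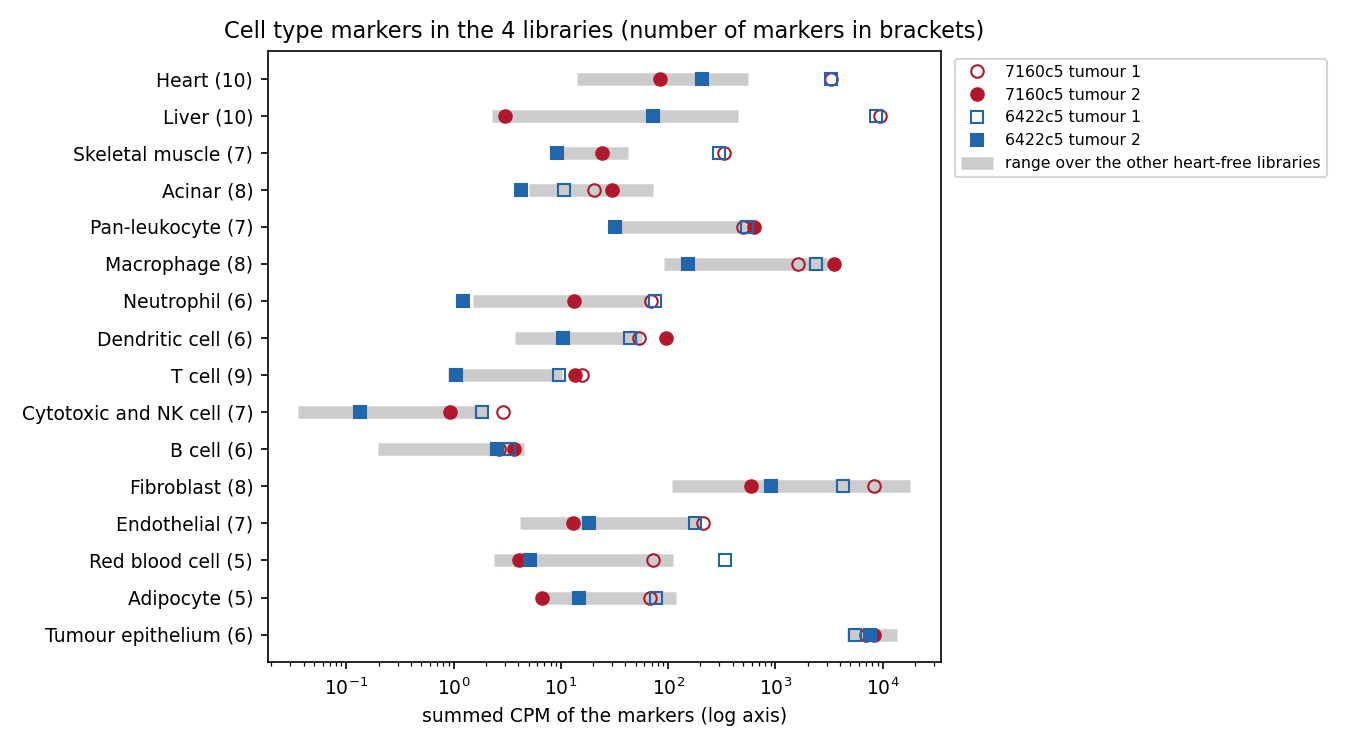
Summed CPM of cell type markers on a log axis, with 1 row per list and the number of markers in brackets. Red circles are yfp_7160c5 and blue squares yfp_6422c5, open for tumour 1 and filled for tumour 2, and grey bars span the 17 other heart-free libraries. Heart and liver sums are high in both open symbols, and the filled red circle stands far to the right of the filled blue square for the pan-leukocyte and macrophage lists. Clone names on the plots omit the prefix yfp.

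Markers of leukocytes also differed between the tumour 2 libraries. The 7 pan-leukocyte markers summed to 498 and 625 CPM in tumours 1 and 2 of yfp_7160c5, against 539 and 32.0 CPM in those of yfp_6422c5. The 8 macrophage markers summed to 1615 and 3544 CPM in yfp_7160c5, against 2387 and 155 CPM in yfp_6422c5, with the other heart-free libraries between 92.2 and 3020 CPM. The tumour 2 library of yfp_7160c5 thus lay above, and that of yfp_6422c5 near the bottom of, the other libraries of its kind. The 9 T cell markers summed to 15.8 and 13.6 CPM in yfp_7160c5, against 9.69 and 1.04 CPM in yfp_6422c5. In tumour 2 of yfp_7160c5, 8 of the 9 were under 1 CPM, among them Cd3e, Cd3d and Cd8b1 with no count. Most of its sum thus came from 1 marker. All 9 were under 1 CPM in tumour 2 of yfp_6422c5. Markers of pancreatic tumour epithelium were present in all 4 libraries, at 6944 and 8362 CPM in yfp_7160c5 and 5484 and 7639 CPM in yfp_6422c5, as the label of sorted tumour cells says. In RNA from sorted cells, fewer cells of a type and less RNA per cell cannot be told apart.

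S100a14, Gpa33 and Muc4 had the smallest p of the named genes higher in yfp_7160c5. S100a14, a calcium-binding protein of epithelia at chr3:90526856-90528837 (GENCODE M21 on GRCm38, as for all genes below), stood at 88.6 and 291 CPM in tumours 1 and 2 of yfp_7160c5, against 9.90 and 10.2 CPM in those of yfp_6422c5. Gpa33, a surface antigen of the immunoglobulin superfamily known from intestinal epithelium (chr1:166130238-166166510), stood at 71.5 and 158 CPM in yfp_7160c5, against 4.14 and 1.10 CPM in yfp_6422c5. Muc4, a membrane-bound mucin (chr16:32735886-32782391), stood at 80.6 and 127 CPM in yfp_7160c5, against 3.14 and 2.19 CPM in yfp_6422c5. For each of these genes the groups did not overlap, and the tumour 2 library of yfp_7160c5 was the highest of the 4. The fitted log2 differences were 4.24 ± 0.67 (SE), 5.46 ± 0.88 and 5.29 ± 0.88, each with an adjusted p of 0.0171 in edgeR's test. No other heart-free library of the series was above yfp_7160c5 for S100a14 or Gpa33. The highest of those others was tumour 2 of the sister clone yfp_7160c2, at 172 and 119 CPM, and it held 131 CPM of Muc4. The T cell low heart-free libraries reached 56.9 CPM for S100a14 and 36.0 CPM for Gpa33.

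Epcam, an adhesion protein that marks epithelium (chr17:87635979-87651129), stood at 497 and 1422 CPM in yfp_7160c5, against 30.3 and 30.6 CPM in yfp_6422c5 (log2 4.98 ± 1.06, adjusted p 0.0411 by edgeR). Lama3, the alpha chain of the basement membrane laminin of epithelia (chr18:12333819-12583013), stood at 154 and 335 CPM in yfp_7160c5, against 17.9 and 8.77 CPM in yfp_6422c5 (log2 4.20 ± 0.87, adjusted p 0.0398). Krt14, a keratin of basal cells (chr11:100203162-100207548), stood at 8.06 and 30.8 CPM in yfp_7160c5, against 0.419 and 0.401 CPM in yfp_6422c5 (log2 5.56 ± 1.17, adjusted p 0.0398). Every library of yfp_7160c5 was above both libraries of yfp_6422c5 for these genes. For Epcam and Lama3 the tumour 2 library of yfp_7160c5 was also above all 17 other heart-free libraries. The highest of the 17 was tumour 2 of the sister clone yfp_7160c2 for both genes, at 878 and 214 CPM.

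Further genes higher in yfp_7160c5 encode enzymes, receptors and antibacterial proteins. Mgat4a, which adds a branch to N-glycans (chr1:37439340-37541016), stood at 101 and 205 CPM in yfp_7160c5, against 29.1 and 6.47 CPM in yfp_6422c5 (log2 3.11 ± 0.57, adjusted p 0.0214). F2rl1, the protease-activated receptor 2 (chr13:95511732-95525227), stood at 111 and 184 CPM in yfp_7160c5, against 56.2 and 50.4 CPM in yfp_6422c5 (log2 1.47 ± 0.29, adjusted p 0.0337). Pglyrp1, a peptidoglycan recognition protein (chr7:18871331-18890459), stood at 80.8 and 203 CPM in yfp_7160c5, against 12.6 and 7.76 CPM in yfp_6422c5 (log2 3.80 ± 0.76, adjusted p 0.0358). The groups were apart for all 3, and the difference was the smallest for F2rl1. Reg3g, an antibacterial lectin, showed the largest fitted rise, with 37.1 and 141 CPM in yfp_7160c5 against 0.576 and 0.401 CPM in yfp_6422c5 (log2 7.51 ± 1.53, adjusted p 0.0381 by edgeR), and it belongs to a family of similar genes. Reg3g was chosen after its values were seen.

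Other genes higher in yfp_7160c5 by the same rule were Il17rd, an inhibitor of fibroblast growth factor signalling, S100b, Tmc4, Pitpnm3, Ripply3, Rgp1, Scmh1, Trak1 and Pip5k1c. Their fitted log2 differences ran between that of Trak1, a mitochondrial transport adaptor with 71.3 and 91.9 CPM in yfp_7160c5 against 44.7 and 34.3 CPM in yfp_6422c5 (log2 1.05 ± 0.21, adjusted p 0.0337), and that of S100b, a calcium-binding protein with 13.4 and 26.2 CPM in yfp_7160c5 against 0.576 and 0.187 CPM in yfp_6422c5 (log2 5.72 ± 1.05, adjusted p 0.0214). Il17rd stood at 23.9 and 48.9 CPM in yfp_7160c5, against 4.50 and 5.59 CPM in yfp_6422c5. None of these genes overlapped between the clones.

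Genes lower in yfp_7160c5 changed by smaller folds. Vsig1, a junction adhesion protein of gastric epithelium (chrX:140907608-140939472), stood at 64.2 and 46.1 CPM in yfp_7160c5, against 214 and 375 CPM in yfp_6422c5 (log2 -2.42 ± 0.39, adjusted p 0.0171 by edgeR). Pros1, which encodes the anticoagulant protein S, also a ligand of TAM receptors (chr16:62854307-62929346), stood at 62.7 and 30.3 CPM in yfp_7160c5, against 168 and 368 CPM in yfp_6422c5 (log2 -2.53 ± 0.42, adjusted p 0.0171). Psat1, an enzyme of serine synthesis (chr19:15904678-15947337), stood at 76.1 and 44.2 CPM in yfp_7160c5, against 169 and 216 CPM in yfp_6422c5 (log2 -1.68 ± 0.29, adjusted p 0.0171). In each case both libraries of yfp_7160c5 were below both of yfp_6422c5. The tumour 2 library of yfp_6422c5 was above all 17 other heart-free libraries for the 3 genes, and that of yfp_7160c5 below all of them. Tumour 2 of the sister clone yfp_7160c2 stood at 54.6 CPM for Vsig1, 48.1 CPM for Pros1 and 81.0 CPM for Psat1.

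Il33, an alarmin of the interleukin 1 family (chr19:29925114-29960718), stood at 53.3 and 18.2 CPM in yfp_7160c5, against 177 and 456 CPM in yfp_6422c5 (log2 -3.14 ± 0.68, adjusted p 0.0420 by edgeR). Clcf1, a cytokine of the interleukin 6 type (chr19:4214238-4223490), stood at 82.1 and 83.7 CPM in yfp_7160c5, against 157 and 261 CPM in yfp_6422c5 (log2 -1.34 ± 0.28, adjusted p 0.0411). Both cytokines were higher in tumour 2 of yfp_6422c5 than in any other heart-free library. The remaining 10 members of the interleukin list did not pass in edgeR's test over all classed libraries. Among them Il1a stood at 28.5 and 28.3 CPM in yfp_7160c5, against 10.002 and 1.26 CPM in yfp_6422c5. In the fit of heart-free libraries given below, Il1a passed as higher in yfp_7160c5.

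Other genes lower in yfp_7160c5 included Tmem109, Fads3, a fatty acid desaturase family member, Yif1a, which acts in Golgi traffic, Rab1b, a GTPase of transport out of the endoplasmic reticulum, Abcb10, a mitochondrial transporter, Phf16, Pter, Tmem151a, Snx25 and Cyb561a3. Fads3 (chr19:10041569-10060110) stood at 114 and 54.5 CPM in yfp_7160c5, against 221 and 343 CPM in yfp_6422c5 (log2 -1.74 ± 0.30, adjusted p 0.0171). Rab1b (chr19:5099205-5107072) stood at 121 and 109 CPM in yfp_7160c5, against 185 and 286 CPM in yfp_6422c5 (log2 -1.03 ± 0.20, adjusted p 0.0345). The clones were apart for both genes, and the gap was wider in tumour 2. Of the 76 genes called, 21 have an exon that overlaps an exon of another annotated gene, 20 of them on the opposite strand, among them Muc4, Yif1a, Rgp1, Gata6, Lama3, Snx25, Cyb561a3 and Tmc4. The strand setting of the counting is not given in the sources used here, so reads of such neighbours cannot be told apart.

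**Figure D2:**
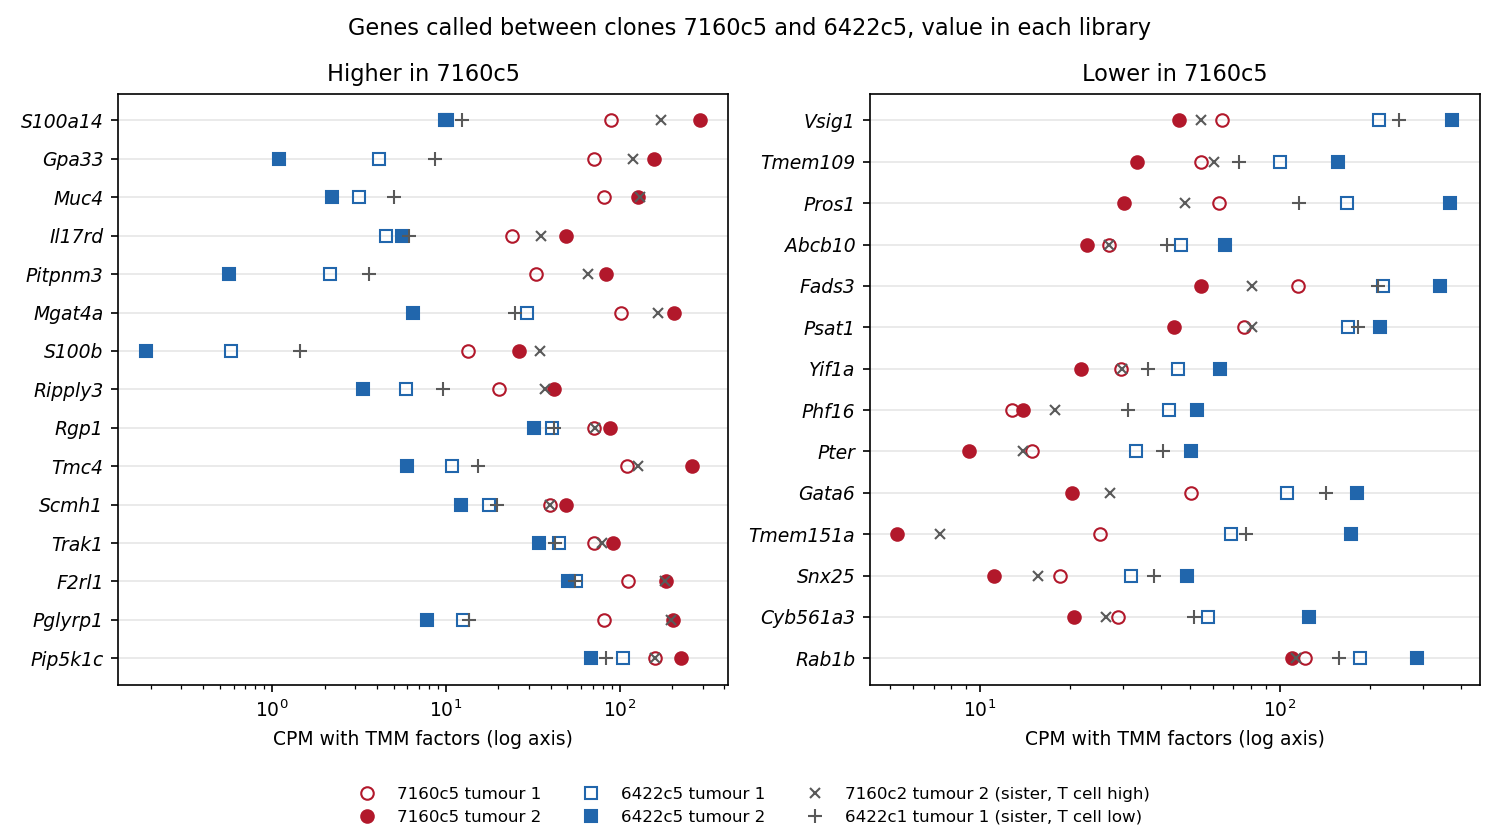
CPM with TMM factors on a log axis for genes named by rule, higher in yfp_7160c5 on the left and lower on the right. Red circles are yfp_7160c5 and blue squares yfp_6422c5, open for tumour 1 and filled for tumour 2, and grey crosses and plus signs are libraries of the sister clones yfp_7160c2 and yfp_6422c1. For S100a14 the red symbols are at 88.6 and 291 CPM and the blue ones near 10 CPM, and for Vsig1 the order is turned round.

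The same difference was smaller between the tumour 1 libraries than between the tumour 2 libraries. Among the 38 genes higher in yfp_7160c5 the median log2 difference was 2.46 in the tumour 1 pair and 4.43 in the tumour 2 pair, and among the 38 lower genes it was -0.89 and -2.18. In 37 of 38 genes of each direction the tumour 1 difference was the smaller. The median fitted difference was 3.51 for the higher and -1.54 for the lower genes, also with Hist1h2bn, which had no count in yfp_7160c5, set to its bound of 3 counts over the clone. The libraries did not overlap for any of the 76 genes, where 22.3% of all genes tested did not overlap with yfp_7160c5 higher and 19.4% with yfp_7160c5 lower. These genes were chosen by the comparison, so their apartness is a description.

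Across all 11665 genes that averaged 5 CPM or more, 149 were higher by log2 2 or more in the yfp_7160c5 library of the tumour 1 pair (1.28%) and 43 were lower (0.369%). In the tumour 2 pair, 1015 genes were higher (8.7%) and 272 were lower (2.33%). A difference of log2 1 or more went the same way in both pairs for 511 genes, 393 higher and 118 lower in yfp_7160c5, and opposite ways for 38. A pair holds 1 library of each clone and has no test.

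**Figure D3:**
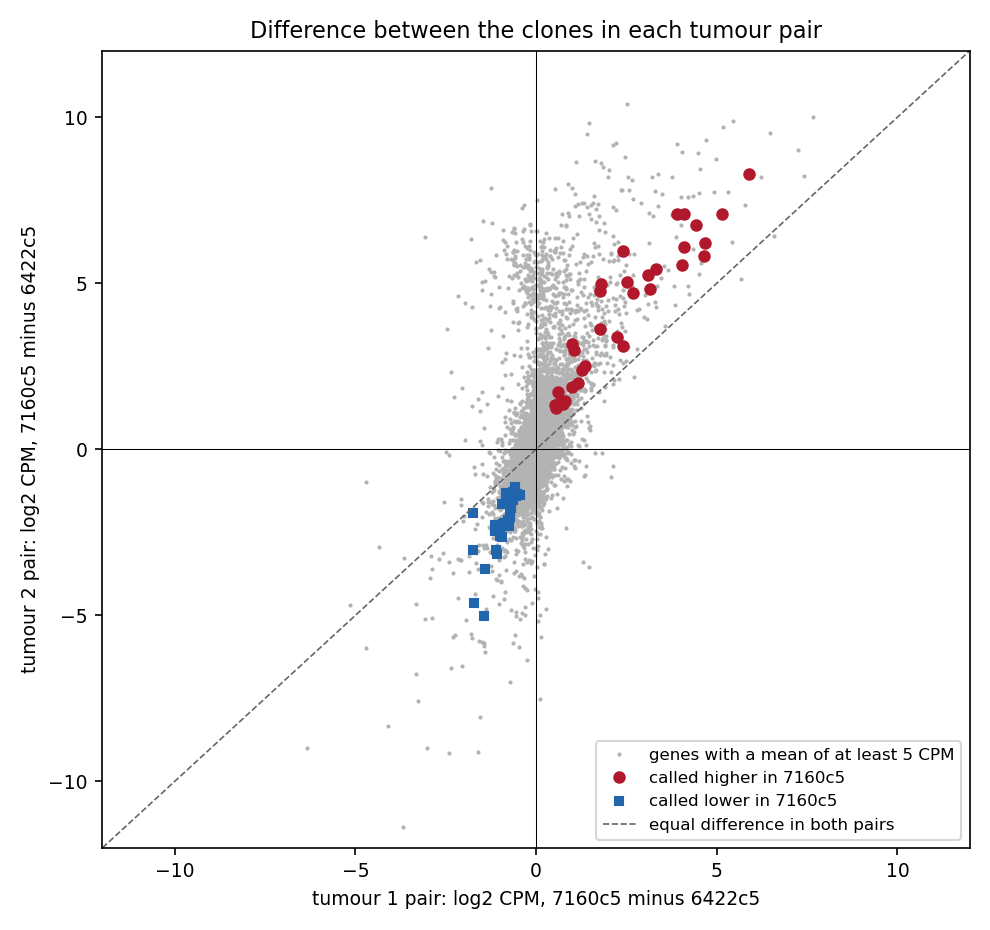
Log2 difference in CPM, yfp_7160c5 minus yfp_6422c5, in the tumour 1 pair (horizontal) and in the tumour 2 pair (vertical), 1 point per gene that averaged 5 CPM or more. Red circles were called higher and blue squares lower in yfp_7160c5, and the dashed line marks equal differences. Coloured points lie in the upper right and lower left, nearly all farther from 0 on the vertical than on the horizontal axis.

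The heart-free libraries gave more calls. A fit of the 19 heart-free classed libraries, with 1 library of each intermediate clone and the spread taken from clones yfp_2699c4 and yfp_2838c3, called 305 of 18639 genes higher in yfp_7160c5 (1.64%) and 324 lower (1.74%). Its spread rests on 3 residual degrees of freedom, and it assumes that the intermediate clones vary like those other clones. A fit over the classed libraries without any tumour 1 library also sets these 2 libraries against each other, and it called Mgat4a alone (2318 genes with an unadjusted p under 0.05). The heart-free calls below are thus not shared by that fit, Mgat4a excepted. Its libraries are the heart-free ones and tumour 2 of yfp_2699c4, which held 4601 CPM of the 4 heart genes. That clone is among those that set the spread, and the cause of the gap was not tested. Of the 76 genes called over all libraries, 23 higher and 32 lower genes were also called here. Gpa33, Krt14, Mgat4a, F2rl1, Pglyrp1, Reg3g, Foxa1, Vsig1, Pros1, Psat1, Fads3, Rab1b, Gata6 and Il33 were among them. S100a14, Muc4, Epcam, Lama3, Trak1 and Clcf1 had the same sign without passing, with adjusted p of 0.0636, 0.0819, 0.0694, 0.0891, 0.0573 and 0.0505 by edgeR. The tumour 1 pair did not enter this fit. There, 295 of the 305 higher genes (96.7%) and 315 of the 324 lower genes (97.2%) had the same sign, where 71.3% and 67.6% of all genes with those signs in the fit did. The median log2 difference of these genes was 5.16 and -1.88 in the heart-free fit, against 1.51 and -0.55 in the tumour 1 pair.

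Genes that led the heart-free fit included developmental regulators and secreted proteins. Thbs4, a matrix thrombospondin, had 23.9 CPM in tumour 1 and 0.894 CPM in tumour 2 of yfp_7160c5, against 126 and 543 CPM in yfp_6422c5 (heart-free log2 -9.37 ± 0.40, adjusted p 0.00672 by edgeR). Wt1, a transcription factor of mesothelium and kidney, had 3.97 CPM in tumour 1 and no count in tumour 2 of yfp_7160c5, against 51.3 and 147 CPM in yfp_6422c5. Ror1, a receptor of Wnt ligands, had 14.2 and 1.18 CPM in yfp_7160c5, against 38.8 and 70.7 CPM in yfp_6422c5 (heart-free log2 -6.02 ± 0.41, adjusted p 0.0122). For each of these genes yfp_6422c5 was above all 17 other heart-free libraries in tumour 2. In the fit over all 36 classed libraries none of the 3 passed, with adjusted p of 0.462, 0.548 and 0.351.

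On the other side, Spint1, an inhibitor of membrane serine proteases, had 63.9 and 129 CPM in yfp_7160c5, against 19.1 and 1.28 CPM in yfp_6422c5 (heart-free log2 6.52 ± 0.46, adjusted p 0.0129 by edgeR). Vangl2, of planar cell polarity, had 17.2 and 37.6 CPM in yfp_7160c5, against 2.57 and 0.588 CPM in yfp_6422c5 (heart-free log2 5.86 ± 0.37, adjusted p 0.0103). Sulf2, which trims sulphate from heparan sulphate, had 182 and 372 CPM in yfp_7160c5, against 66.4 and 2.70 CPM in yfp_6422c5 (heart-free log2 6.98 ± 0.53, adjusted p 0.0138). In all 3 genes yfp_7160c5 was higher in both tumours, and the tumour 2 library of yfp_6422c5 was the lowest of the 4. None passed in the fit over all classed libraries.

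Sister clones give libraries that the contrast did not use, although all 36 classed libraries entered its estimate of spread. In the tumour 1 libraries of yfp_7160c2 and yfp_6422c1, 36 of the 38 higher genes were higher and 37 of the 38 lower genes were lower in yfp_7160c2, where 51.3% and 48.1% of all genes went those ways. The yfp_7160c2 library is nearly the yfp_7160c5 library (r = 0.994) and is no independent check, so the yfp_6422c1 library carries what is new there. Il33, for example, stood at 60.1 CPM in yfp_7160c2 against 169 CPM in yfp_6422c1, and Gata6 at 48.6 CPM against 143 CPM. The clones of a line were in different T cell classes, yfp_7160c2 high and yfp_6422c1 low. The tumour 2 library of yfp_7160c2 correlated with that of yfp_7160c5 at 0.933, and 894 of 11665 genes differed by log2 1 or more. A midpoint was set at the geometric mean of the tumour 2 levels of the 2 intermediate clones. The yfp_7160c2 library lay on the yfp_7160c5 side of it for 38 of 38 higher and 37 of 38 lower genes. These genes were chosen with those levels, and the share over all genes was not computed.

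Genes on a few chromosomes leaned in one direction. On chromosome 19 the median log2 difference over 419 genes that averaged 5 CPM or more was -0.32 in the tumour 1 pair and -0.77 in the tumour 2 pair, against -0.02 and -0.06 over all 11665 genes. On chromosome 8 the medians were -0.26 and -0.60, and on chromosome 3 they were -0.22 and -0.53. Chromosome 4 went the other way, with 0.23 and 0.52. The tumour 2 pair thus showed the wider gap on each of these chromosomes. Between the tumour 1 libraries of the sister clones, yfp_7160c2 minus yfp_6422c1, the medians of chromosomes 19, 8, 3 and 4 were -0.36, -0.47, -0.39 and 0.25. Genes on a chromosome are not replicates, so these medians have no test.

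Chromosome 19 held 20 of the 38 genes lower in yfp_7160c5 and none of the 38 higher ones, in edgeR's fit over all classed libraries. It held 647 of the 20481 genes tested there. In the heart-free fit, 70 of its 596 genes were lower and 4 were higher. Along the chromosome the tumour 2 medians lay between -1.03 and -0.86 in the 10 Mb windows of the first 30 Mb, and between -0.45 and -0.30 in those of the next 30 Mb. Il33, Clcf1, Psat1, Fads3, Rab1b, Tmem109 and Ndufv1, a subunit of mitochondrial complex I with 130 and 101 CPM in yfp_7160c5 against 186 and 256 CPM in yfp_6422c5, are among them, and 17 of the 20 start in the first 30 Mb. Set against the mean of the clones, the median chromosome 19 gene was lowest of the 19 heart-free libraries in yfp_7160c5 (-0.40) and highest in yfp_6422c5 (0.35). yfp_7160c2 stood next to yfp_7160c5 at -0.36. For chromosome 4, yfp_6422c5 was the lowest heart-free library at -0.43, and yfp_7160c5 stood at 0.11. The number of copies of a chromosome was not measured.

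**Figure D4:**
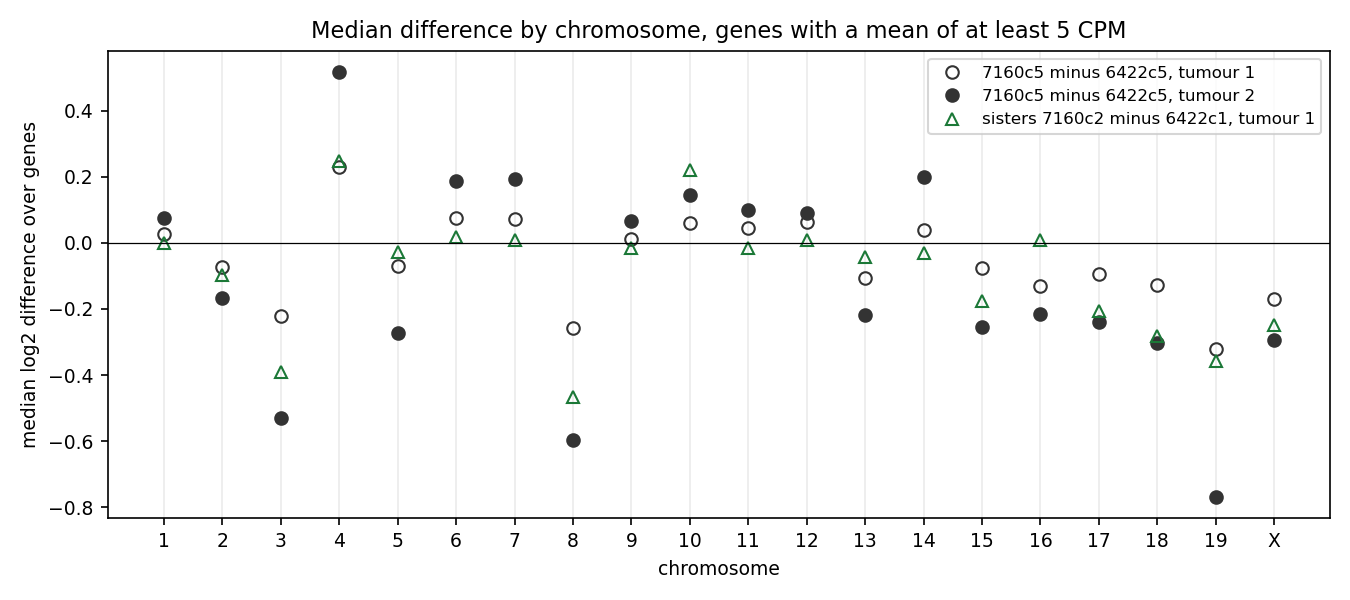
Median log2 difference over the genes of each chromosome that averaged 5 CPM or more. Open and filled circles are yfp_7160c5 minus yfp_6422c5 in tumours 1 and 2, and green triangles the tumour 1 libraries of the sister clones, yfp_7160c2 minus yfp_6422c1. Chromosomes 3, 8 and 19 lie below 0 and chromosome 4 above 0 in all 3 comparisons, with chromosome 19 lowest at -0.77 in tumour 2.

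Among 19 tested factors of pancreatic and foregut identity, 1 was higher and 1 lower in yfp_7160c5 in edgeR's test over all classed libraries. DESeq2 called 2 higher and 2 lower, and limma 1 and 2, where DESeq2 called 2.03% of all genes tested higher and 1.67% lower, and limma 0.908% and 0.41%. Foxa1, a pioneer factor that opens chromatin of foregut epithelium (chr12:57540628-57546916), stood at 28.9 and 57.7 CPM in yfp_7160c5, against 5.03 and 1.71 CPM in yfp_6422c5 (log2 3.69 ± 0.76, adjusted p 0.0398 by edgeR). Gata6, a factor of foregut and pancreatic development (chr18:11052064-11085635), stood at 50.3 and 20.2 CPM in yfp_7160c5, against 106 and 180 CPM in yfp_6422c5 (log2 -2.02 ± 0.39, adjusted p 0.0323). The tumour 2 library of yfp_7160c5 was above all other heart-free libraries for Foxa1 and below them all for Gata6, and that of yfp_6422c5 was above them all for Gata6. Tumour 2 of the sister clone yfp_7160c2 stood at 40.8 CPM for Foxa1 and was next lowest for Gata6, at 27.2 CPM. Hnf4a, a factor of foregut epithelium, had 241 and 231 CPM in yfp_7160c5, against 256 and 298 CPM in yfp_6422c5, and did not pass (adjusted p 0.899).

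In the heart-free fit Foxa1 was again higher, and Foxa2, Gata4, Gata6 and Sox2 were lower in yfp_7160c5. Foxa2 stood at 52.3 and 35.2 CPM in yfp_7160c5, against 77.3 and 132 CPM in yfp_6422c5 (heart-free log2 -2.04, adjusted p 0.0401 by edgeR). Sox2, a factor of the foregut and stem cells, had 1.20 and 0.260 CPM in yfp_7160c5, against 21.2 and 101 CPM in yfp_6422c5 (heart-free log2 -8.71 ± 1.19, adjusted p 0.0294). Its tumour 2 level in yfp_6422c5 was the highest of all heart-free libraries, whose other values reached 2.35 CPM in T cell high and 11.3 CPM in T cell low libraries. The median log2 difference of the factor list over all classed libraries was -0.16, against 0.07 over all genes tested.

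Of 22 epithelial genes, 1 passed in edgeR's fit over all classed libraries, Epcam, while DESeq2 called 9 and limma 7 as higher. Of all genes tested, edgeR called 0.186% higher, DESeq2 2.03% and limma 0.908%. An unadjusted p under 0.05 in edgeR's test was reached by 11 of the 22, where 11.8% of all genes reached it. In the heart-free fit, Cldn3, Cldn7, Esrp1, Grhl2 and Rab25 passed as higher in yfp_7160c5. The list's median log2 difference was 1.72 over all classed libraries, against 0.07 for all genes tested. Cldn7, a claudin of tight junctions, had 116 and 295 CPM in yfp_7160c5, against 13.2 and 3.96 CPM in yfp_6422c5 (heart-free log2 6.09, adjusted p 0.0426 by edgeR). Esrp1, a splicing regulator of epithelia, had 64.9 and 139 CPM in yfp_7160c5, against 2.72 and 0.348 CPM in yfp_6422c5 (heart-free log2 8.50 ± 1.57, adjusted p 0.0491). Not all of the list differed in this way. Cdh1, which encodes E-cadherin, stood at 795 and 1164 CPM in yfp_7160c5, against 809 and 1573 CPM in yfp_6422c5 (adjusted p 0.934 over all classed libraries), and Krt19, a duct keratin, at 976 and 959 CPM in yfp_7160c5 against 874 and 1414 CPM in yfp_6422c5 (adjusted p 0.971).

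Of 18 mesenchymal genes none passed over all classed libraries in edgeR's test, DESeq2 or limma, and 4 had an unadjusted p under 0.05, where 11.8% of all genes tested did. The smallest adjusted p in edgeR's test was that of Zeb1 at 0.163. In the heart-free fit Twist1, a transition factor, was higher in yfp_7160c5 and S100a4 was lower. Twist1 had 25.0 and 40.7 CPM in yfp_7160c5, against 9.95 and 2.59 CPM in yfp_6422c5 (heart-free log2 3.84, adjusted p 0.0149). Vim, the intermediate filament vimentin, had 1861 and 899 CPM in yfp_7160c5, against 2388 and 3374 CPM in yfp_6422c5 (adjusted p 0.190 over all classed libraries). Fibroblast markers, which share genes with this list, summed to 8374 and 591 CPM in yfp_7160c5 and to 4239 and 916 CPM in yfp_6422c5, and their part in these values was not tested.

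Products of duct and gastric epithelium leaned higher in yfp_7160c5, though not all of them. Of 19 tested, 14 had a positive fitted log2 difference, and the median was 2.92 against 0.07 over all genes tested. Muc4 was higher and Vsig1 lower in yfp_7160c5 over all classed libraries in edgeR's test. There 13 of the 19 had an unadjusted p under 0.05, where 11.8% of all genes tested did. DESeq2 called 5 higher and 2 lower, with Muc13, Muc20, Tff2, Cftr and Anxa10 besides, and limma 3 and 2. Muc13, Muc20, Agr2 and Cftr were higher and Vsig1 and Anxa10 lower in the heart-free fit. Agr2, a secretory pathway disulphide isomerase of mucous cells, had 86.1 and 166 CPM in yfp_7160c5, against 0.367 and 0.107 CPM in yfp_6422c5 (heart-free log2 10.43 ± 1.79, adjusted p 0.0466 by edgeR). Cftr, the chloride channel of ducts, had 256 and 643 CPM in yfp_7160c5, against 13.6 and 25.3 CPM in yfp_6422c5 (heart-free log2 4.54 ± 0.59, adjusted p 0.0287). Anxa10, an annexin of gastric epithelium, had 28.0 and 24.1 CPM in yfp_7160c5, against 102 and 309 CPM in yfp_6422c5 (heart-free log2 -3.81, adjusted p 0.0171). Ctse, a gastric protease, had 813 and 1104 CPM in yfp_7160c5 and 456 and 437 CPM in yfp_6422c5, and did not pass (adjusted p 0.296).

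Chemokines and growth factors of myeloid cells did not pass over all classed libraries, with 0 of 6 CXCR2 ligands and 0 of 8 colony-stimulating factors and monocyte attractants in edgeR's test. The CXCR2 ligands had 0 with an unadjusted p under 0.05 and 0 calls by DESeq2 or limma, and the other list had 1, Csf3, which both other tools called higher. In the heart-free fit the neutrophil attractants Cxcl1 and Cxcl2 were higher in yfp_7160c5. Cxcl1 had 17.8 and 8.31 CPM in yfp_7160c5, against 20.9 and 0.134 CPM in yfp_6422c5 (heart-free log2 5.79 ± 0.60, adjusted p 0.0192 by edgeR). The tumour 1 libraries thus lay close together, and the clones were apart in the tumour 2 pair. Csf3, the granulocyte colony-stimulating factor, had 8.61 and 12.8 CPM in yfp_7160c5, against 1.73 and 1.20 CPM in yfp_6422c5, and did not pass (adjusted p 0.128 over all classed libraries and 0.101 in the heart-free fit). Neutrophil markers summed to 69.9 and 13.3 CPM in yfp_7160c5, against 75.2 and 1.23 CPM in yfp_6422c5, and their part in these values was not tested.

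No gene of the MHC lists passed in either edgeR fit, and of the interferon-stimulated genes Usp18 alone passed, in the heart-free fit. None of 8 MHC class II genes passed by DESeq2 or limma either. An unadjusted p under 0.05 was reached by 2 of them over all classed libraries, where 11.8% of all genes tested reached it, and by 8 in the heart-free fit, where 26.6% did, and their median log2 difference was 0.55 in the tumour 1 pair and 6.03 in the tumour 2 pair, against -0.02 and -0.06 over all genes. Cd74, the MHC class II invariant chain, had 453 and 953 CPM in yfp_7160c5, against 321 and 15.1 CPM in yfp_6422c5 (adjusted p 0.615 by edgeR over all classed libraries). The macrophage marker sums given above, 3544 CPM in yfp_7160c5 against 155 CPM in yfp_6422c5 in tumour 2, moved with them, and their part was not tested. Of 22 interferon-stimulated genes none passed over all classed libraries in edgeR's test (10 with an unadjusted p under 0.05), and DESeq2 called 4 and limma 1 higher. Usp18, which restrains interferon signalling, passed in the heart-free fit, with 10.7 and 24.4 CPM in yfp_7160c5 against 2.57 and 0.695 CPM in yfp_6422c5 (adjusted p 0.0352). Of 15 MHC class I genes, 10 lymphocyte attractants, 12 checkpoint ligands and adenosine enzymes and 10 complement genes, none passed in either edgeR fit, with 5, 0, 1 and 1 at an unadjusted p under 0.05 over all classed libraries and 6, 2, 4 and 2 in the heart-free fit. For the attractants, the checkpoint and the complement genes these counts lie near the shares of all genes just given. Of these genes DESeq2 and limma called Cd55, a complement regulator, as higher.

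None of 13 genes of the prostaglandin pathway passed over all classed libraries in edgeR's test, DESeq2 or limma, and 0 had an unadjusted p under 0.05. Ptgs2, the inducible cyclooxygenase, had 85.9 and 14.9 CPM in yfp_7160c5, against 97.8 and 152 CPM in yfp_6422c5 (adjusted p 0.646 by edgeR, and 0.0807 in the heart-free fit). Slco2a1, a prostaglandin transporter, had 120 and 56.4 CPM in yfp_7160c5, against 139 and 151 CPM in yfp_6422c5, and passed as lower in the heart-free fit (log2 -1.55, adjusted p 0.0485).

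Of 5 sex chromosome genes none passed over all classed libraries, and Xist alone passed in the heart-free fit. Xist, the RNA of the inactive X chromosome, had 41.0 and 102 CPM in yfp_7160c5, against 832 and 782 CPM in yfp_6422c5 (adjusted p 0.471 by edgeR over all classed libraries, and 0.0485 in the heart-free fit). The Y-linked gene Ddx3y had 56.8 and 39.9 CPM in yfp_7160c5, against 21.3 CPM in tumour 1 and no count in tumour 2 of yfp_6422c5. Kdm5d, Uty and Eif2s3y had no count in tumour 2 of yfp_6422c5 either, and 6.18, 5.92 and 15.7 CPM in its tumour 1. The 2 libraries of yfp_6422c5 thus differ in whether Y-linked transcripts were counted. Over all classed libraries 0 of the 5 genes had an unadjusted p under 0.05 in edgeR's test and DESeq2 and limma called 0, and in the heart-free fit 5 had an unadjusted p under 0.05. The labels do not give the sex of the hosts or of the tumour lines.

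In the lists that follow no gene passed over all classed libraries in edgeR's test, which called 0.186% of all genes tested in each direction. An unadjusted p under 0.05 was reached there by 11.8% of all genes. The shares of all genes called by DESeq2, by limma and in the heart-free fit are given above. Of 18 tested Wnt pathway genes none passed over all classed libraries in edgeR's test (4 with an unadjusted p under 0.05), and DESeq2 called Wnt5a and Wnt7a higher and limma none. Both ligands were higher in yfp_7160c5 in the heart-free fit, Wnt7a with 60.3 and 139 CPM in yfp_7160c5 against 13.7 and 0.829 CPM in yfp_6422c5 (heart-free log2 7.26 ± 0.67, adjusted p 0.0171 by edgeR). Bmp2 and Bmp7, ligands of the TGF-beta family, were higher in that fit as well. None of the 21 genes of their list passed over all classed libraries in edgeR's test, DESeq2 or limma. By edgeR 1 of them had an unadjusted p under 0.05. Among 21 proliferation genes none passed over all classed libraries (6 with an unadjusted p under 0.05, and Ccna2 and Mcm7 lower by DESeq2), and Ccna2 and Rrm2 were lower in yfp_7160c5 in the heart-free fit, Rrm2, the regulated subunit of ribonucleotide reductase, with 66.5 and 26.0 CPM in yfp_7160c5 against 87.7 and 159 CPM in yfp_6422c5 (adjusted p 0.0413). Over all classed libraries, 1 of the 21 proliferation genes had a positive fitted log2 difference. Their median was -0.66, against 0.07 over all genes tested. Of 19 oxidative stress genes none passed over all classed libraries in edgeR's test, DESeq2 or limma. By edgeR 4 of them had an unadjusted p under 0.05. Gclm, Gstp1 and Aldh3a1 were lower in yfp_7160c5 in the heart-free fit. Trp53, a tumour suppressor that halts damaged cells, had 72.6 and 117 CPM in yfp_7160c5 against 71.8 and 148 CPM in yfp_6422c5 and did not pass the test.

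Genes that separate T cell high from T cell low clones were set beside the heart-free libraries of both classes. The high libraries include tumour 2 of yfp_7160c2, which shares its parent line with yfp_7160c5. The list of 11 was taken from an earlier comparison of the high and low clones of these data, so the levels are a description. None passed between the intermediate clones over all classed libraries in edgeR's test (3 with an unadjusted p under 0.05), and DESeq2 called 3 and limma 1. In the heart-free fit Cldn7, Stmn2 and Fes were higher and Tex2 lower in yfp_7160c5. In tumour 2, Cldn7 was 295 CPM in yfp_7160c5, above the 10.01 to 267 CPM of 8 heart-free T cell high libraries, and 3.96 CPM in yfp_6422c5, within the 2.18 to 33.0 CPM of 9 heart-free T cell low libraries. Tex2 was 37.0 CPM in yfp_7160c5, below the 39.7 to 51.1 CPM of high libraries, and 95.8 CPM in yfp_6422c5, within the 66.2 to 103 CPM of low libraries.

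Ptgs2 was 14.9 CPM in yfp_7160c5, within the 13.2 to 74.6 CPM of high libraries, and 152 CPM in yfp_6422c5, within the 20.01 to 230 CPM of low libraries. Pde7a and Vps54 did not follow this order. Pde7a was 41.3 CPM in yfp_7160c5 and 46.2 CPM in yfp_6422c5, both within the 38.2 to 52.9 CPM of low libraries and above the high libraries, which reached 38.2 CPM. Vps54 was 54.8 CPM in yfp_7160c5, also within the low range of 44.1 to 56.7 CPM, and 45.0 CPM in yfp_6422c5. In tumour 1 Tex2 stood at 48.7 CPM in yfp_7160c5 and 62.4 CPM in yfp_6422c5, a smaller gap than in tumour 2.

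**Figure D5:**
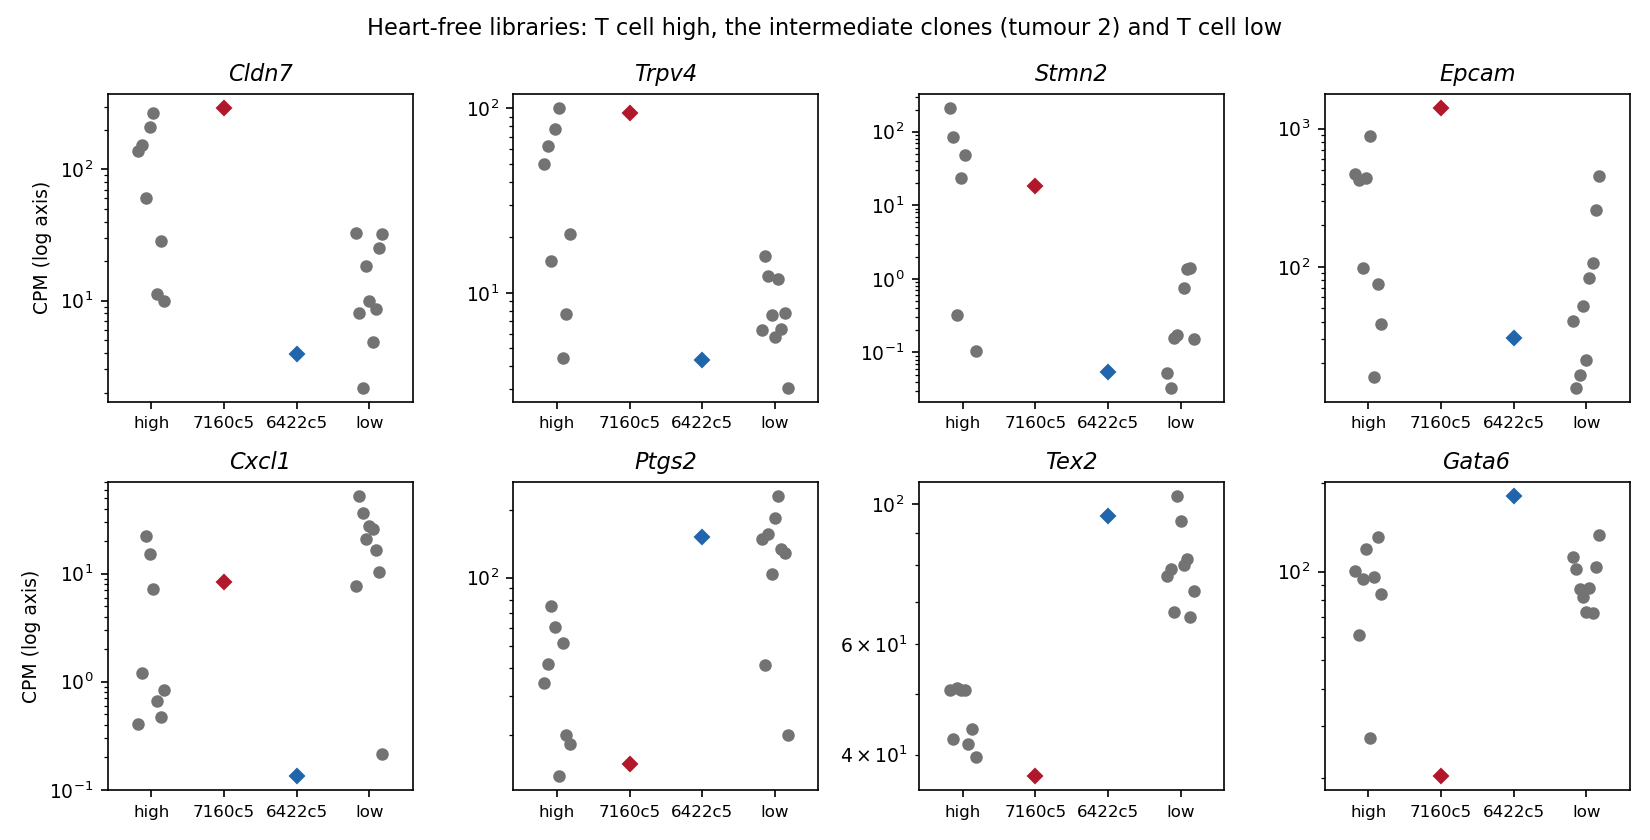
CPM on a log axis in heart-free libraries for 8 genes. Each panel shows the 8 T cell high libraries, tumour 2 of yfp_7160c5 (red), tumour 2 of yfp_6422c5 (blue) and the 9 T cell low libraries. The high libraries include tumour 2 of the sister clone yfp_7160c2, the highest of them for Epcam at 878 CPM. The red diamond lies among or above the high libraries for Cldn7 and Epcam, and the blue diamond lies above all other libraries for Gata6, at 180 CPM. Libraries without a count are not drawn on the log axis.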

How the data were processed

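Counts of reads per gene, deposited by the authors as raw whole numbers for 39017 genes in 39 libraries, had been made with STAR and featureCounts on mm10, per the submitters' processing notes. Versions, annotation and strand setting: not given in the sources used here. The 3 libraries without a T cell class entered no fit. Counts of the 36 classed libraries were kept by filterByExpr, scaled by TMM and fitted with 1 coefficient per clone, and yfp_7160c5 minus yfp_6422c5 was tested in R 4.3.3 by edgeR 4.0.16, quasi-likelihood F test (19 residual degrees of freedom), with Benjamini-Hochberg adjustment over all genes tested. Values after ± were not estimated by the fit directly. They are the absolute log2 difference divided by the square root of the F statistic. Differences of 1 library pair are log2 CPM with a prior count of 2. The heart-free fit was added after seeing the data. Alternatives were other scalings, filters, replicates, covariates, DESeq2 1.42.0 and limma 3.58.1, and the fit was tested on simulated data. Named genes were the 15 with the smallest p in each direction with a mean of at least 5 CPM (10 in the heart-free fit), Gm, Rik and pseudogene symbols passed over, plus called list members; some genes that the rule or the lists hold are not reported here. Members and lists were chosen with earlier results of these data known. Gene positions are from GENCODE M21 and promoters from RefSeq on GRCm38.p6.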

Additional observations from a re-analysis of the deposited data

Results flagged for a closer look

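Among 466 list members and named genes looked at, 4 moved by log2 1 or more in opposite directions in the tumour pairs, and the difference between pairs was not tested, since each holds 1 library of each clone. The monocyte attractants Ccl8, Ccl7 and Ccl12 were lower in yfp_7160c5 in the tumour 1 pair, by log2 -1.25, -1.49 and -1.76, and higher in the tumour 2 pair, by log2 7.87, 4.80 and 4.29. Ccl8 had 18.8 and 56.8 CPM in tumours 1 and 2 of yfp_7160c5, against 44.7 and 0.187 CPM in those of yfp_6422c5. The macrophage marker sums, 1615 and 3544 CPM in yfp_7160c5 against 2387 and 155 CPM in yfp_6422c5, moved the same way as these 3 genes, and their part was not tested. The matrix protease Mmp3 was higher in yfp_7160c5 in the tumour 1 pair (log2 1.29) and lower in the tumour 2 pair (log2 -3.39), with 76.1 and 2.51 CPM in yfp_7160c5 against 31.2 and 26.9 CPM in yfp_6422c5. The fibroblast marker sums were 8374 and 591 CPM in yfp_7160c5 against 4239 and 916 CPM in yfp_6422c5, and their part was not tested.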

How the results depend on the processing

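The direction of the 76 genes called by edgeR did not change under any alternative in which they were tested. The number called, 38 higher and 38 lower in yfp_7160c5 (76), moved with the samples and the tool. It was 97 with DESeq2 size factors in place of TMM, with 36 higher and 35 lower genes shared. Without a scaling factor 109 were called, 65.1% of them higher against 50% with TMM, and the median log2 difference of all genes was 0.17 against 0.07. The count was 41 without a filter, 172 with at least 5 CPM in 2 of the 4 libraries, 759 with DESeq2, 270 with limma and voom, 477 with the heart-bearing kind as a covariate, 629 in heart-free and 80 in heart-bearing libraries, and 3 for a change of more than 1.5 times (3 higher, 0 lower, 1323 with an unadjusted p under 0.05). In the 4 libraries alone 0 passed (1156 with an unadjusted p under 0.05). Leaving out replicates gave between 0 and 408. Without the tumour 1 libraries of all clones Mgat4a alone passed (2318 with an unadjusted p under 0.05), and without the tumour 2 libraries of all clones 0 did (428). With the tumour number as a replicate block 181 genes were called over all classed libraries, including all 76, and 0 in the 4 libraries alone (1295 with an unadjusted p under 0.05). The deviations of tumour 1 from tumour 2 correlated between the clones at 0.664 over 11665 genes, with 2 pairs only. Every classed clone with more than 1 library held both a heart-bearing and a heart-free library. The main fit did not model that difference or the tumour number, so it stayed in the spread. The labels do not say that the numbers pair the samples. For 10 of the 76 genes with a mean under 5 CPM, counts limit precision. The cause of these changes was not tested.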
